A study of Mus musculus with 9 samples.

Results

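Hearts of male OMA1 knockout mice that had received isoproterenol were compared with hearts of untreated male OMA1 knockout mice, gene by gene. The comparison covers 8543 of the 13539 genes in the deposited table, all that reached 10 in 3 or more of its 9 samples, and 6 of those 9 samples. Treated mice carried a minipump that delivered 10 mg/kg of isoproterenol per day for 7 days (3 samples, here treated 1, 2 and 3). Untreated mice were described only as non-treated controls, with no sham pump mentioned (3 samples, untreated 1, 2 and 3). All 6 were 12 weeks old, on the C57BL/6JOlaHsd background, and all lacked OMA1; the labels do not say how the knockout allele was made. The other 3 samples, treated wild type hearts of the same sex, age and background, entered the estimate of the spread, and their values are quoted beside a few results without a test. Untreated wild type hearts are not analysed here, so no value below says whether the response depends on the loss of OMA1. RNA was sequenced from dissected heart tissue, and a value is a normalized read count, in which 1 read was worth 0.0811 to 0.138 units.

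Isoproterenol is a synthetic catecholamine that activates β-adrenergic receptors, which raise cyclic AMP and, through protein kinase A, the rate and force of contraction. Given over days, it is a standard way to provoke cardiac hypertrophy and fibrosis in mice. The peptidase OMA1 sits in the inner membrane of mitochondria, where stress switches it on; it then cuts the fusion protein OPA1 and, by way of DELE1, can start the integrated stress response.

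The RNA of the targeted gene followed the genotype labels. Oma1 (ENSMUSG00000035069, chromosome 4, 103313812 to 103371868) was at 6.52, 9.10 and 6.63 in untreated and 6.74, 5.73 and 6.25 in treated knockouts, against 22.0, 19.9 and 17.7 in treated wild type hearts, so each knockout value lay below each wild type value; treated and untreated knockouts did not differ beyond the spread (-0.21 ± 0.14 on the log2 scale, adjusted p = 0.24 by limma). Libraries held 6933879 to 12187701 reads. Treated 2 stood apart from treated 1 and 3 on the first principal component, at -24.6 against -15.1 for both of the others, and held more RNA of the erythrocyte haemoglobin gene Hba-a1 (340.1, 1529 and 448 in the 3 treated, 335, 611 and 728 in the 3 untreated). Treated wild type replicate 3 stood apart in matrix and load genes, for example Postn at 1043 and Nppa at 842, and thereby widened the error of those genes in the fit over all 9 samples.

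Markers of several tissues that can come with a dissected heart differed between the groups. Several markers of atrial myocytes were near 0 in all treated knockout hearts and present in all untreated ones. Myl7, the atrial regulatory light chain, was at 279, 131 and 189 in untreated and 0.311, 0.417 and 0 in treated hearts. The atrial peptide gene Nppa, described below, was lower too but not near 0. Sln, the atrial calcium pump inhibitor sarcolipin, was at 134, 53.7 and 88.1 untreated and at 0, 0 and 0.0811 treated, the last value being 1 read. Bmp10, an atrial growth factor, had 42.9, 17.8 and 29.0 untreated and 0 reads treated, at least 316-fold lower against a floor of 3 reads over the treated group. Of 19 atrial markers listed, 15 were tested, 12 were lower and 1, the channel gene Kcna5, was higher in treated hearts, where 27.4% of all tested genes were lower and 23.9% higher; 7 of the 15 reached the minimum of 10 only in untreated libraries, and without any 1 of the untreated libraries 8 were tested and 4 to 5 were lower. Summed over the list, untreated hearts had 2589 to 4570 and treated hearts 1286 to 1401, with 1 member, Bmp10, at 0 in every treated library.

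The fat markers Adipoq and Cfd and the B cell marker Ighm were also lower in each treated heart than in each untreated one. The adipocyte hormone Adipoq was at 4.95, 3.32 and 17.0 in untreated and 0.104, 0 and 0 in treated hearts, and the adipocyte protease Cfd at 15.2, 7.99 and 34.4 and 0.311, 0.104 and 0; both were highest in untreated 3. The B cell antibody chain Ighm fell from 18.7, 17.6 and 106 to 5.39, 3.86 and 5.27. The list of lymphocyte, neutrophil and mast cell markers summed to 32.6 to 158 untreated against 13.1 to 13.5 treated. Only 1 of its 11 members in the deposited data was tested, and it was lower. Of the 10 below the minimum, 4 had a higher and 6 a lower mean in treated hearts. Over all genes below the minimum, 57.5% had a higher mean in treated hearts. The ventricular light chain Myl2 was at 4362 untreated and 4438 treated, and the ventricular transcription factor Irx4 at 27.3 and 23.2. Of 12 ventricular markers listed, 10 were tested, and 5 of these were lower and none higher (median -0.41). That list summed to 9991 to 10756 untreated and 9101 to 9942 treated. Whether the hearts were dissected alike was not tested, and in bulk tissue fewer cells of a type and less RNA per cell cannot be told apart. Epicardial and mesothelial markers summed to 57.5 to 112 untreated and 46.6 to 68.9 treated, and 3 of 12 could be tested, 1 higher and 1 lower; that count moved with many alternatives. The list of nerve, adipocyte and blood cell markers had 6 of 23 tested, 1 higher and none lower; 4 of the 6 were lower without treated 2 or with array weights, 3 without untreated 1, and 8 of 17 with no filter. No marker of skeletal muscle or vessel wall contamination reached the minimum.

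**Figure D1:**
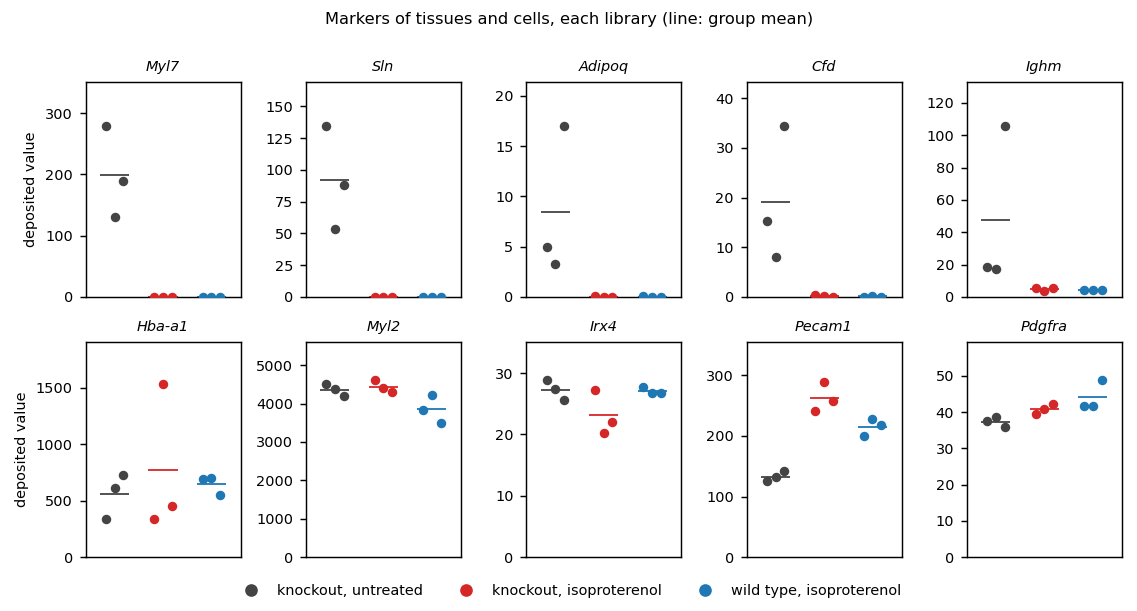
Normalized read count (linear axis from 0) of markers of atrial myocytes (Myl7, Sln), adipocytes (Adipoq, Cfd), B cells (Ighm), erythrocytes (Hba-a1), ventricular myocytes (Myl2, Irx4), endothelium (Pecam1) and fibroblasts (Pdgfra), 1 point per library in 3 groups; the line is the group mean. The atrial and adipocyte markers lie near 0 in all treated libraries of both genotypes, Myl2 and Irx4 are present in every library, and Pecam1 lies higher in each treated knockout than in each untreated one.

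Isoproterenol was accompanied by a change in 4388 of the 8543 genes tested (51.4%; limma, Benjamini-Hochberg adjusted p under 0.05), 2043 higher (23.9%) and 2345 lower (27.4%). At least 2-fold differences were found for 176 higher genes (2.06%) and 123 lower genes (1.44%), and the median log2 difference over all tested genes was -0.02. The 3 treated and 3 untreated libraries did not overlap at all for 5348 genes (62.6%), with 29.2% of all tested genes higher and 33.4% lower in treated hearts. Single genes without overlap are read against these shares. For the largest rises and falls named by rule, no overlap was a condition of being named. Mitochondrially encoded RNA took 38.2% to 42.5% of the treated libraries and 33.9% to 34.6% of the untreated ones, a difference of 5.96 percentage points (exact permutation test, two-sided p = 0.1, the smallest that 3 against 3 samples allow). Scaling to the other RNA alone shifted the median by 0.11 and turned the split to 2866 higher and 1661 lower, raising the share of calls that were higher from 46.6% to 63.3%. Changes of single genes and list medians are log2 differences, treated minus untreated, with their SE where shown after ±. Counts of list members in the main fit are read against the 23.9% higher and 27.4% lower of all tested genes. Counts under another setting are read against all genes in that setting. Scaling without mitochondrial RNA gave 2866 higher and 1661 lower of 8561, cyclic loess 2192 and 2235 of 8543, and median-ratio scaling 2203 and 2195 of 8540. Array weights gave 2250 and 2529 of 8543, and no filter 2849 and 2746 of 13539. A minimum of 30 gave 1108 and 1585 of 4378, and the length and GC correction 2071 and 2389 of 8494. The labels give no animal numbers, and p-values here measure only the spread between these samples.

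**Figure D2:**
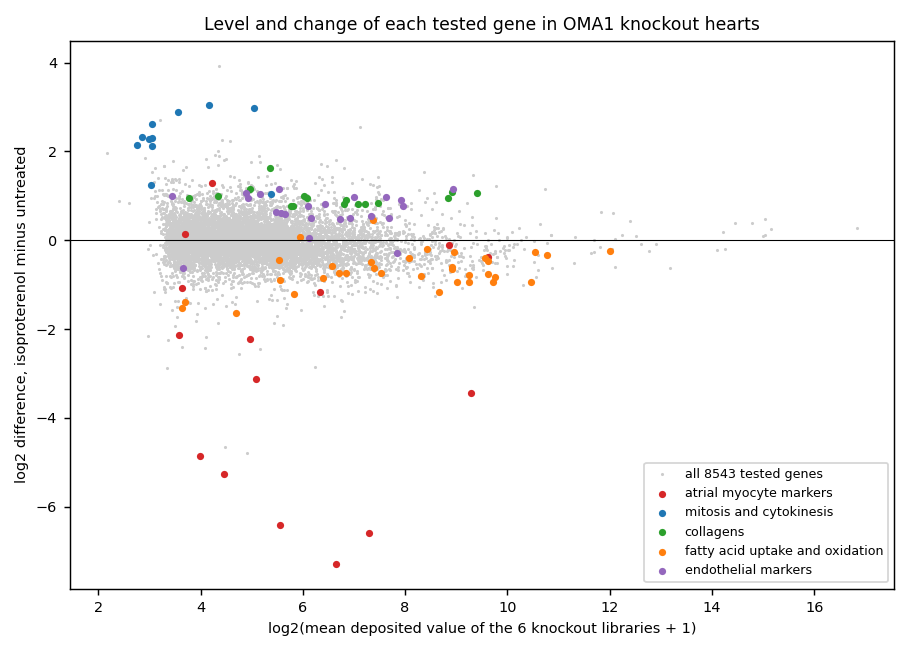
Each grey point is 1 of the 8543 tested genes, with log2(mean normalized read count of the 6 knockout libraries + 1) on the x axis and the log2 difference, treated minus untreated, on the y axis; coloured points are tested members of 5 lists. Mitosis genes (blue) and collagens (green) lie above 0, most fatty acid genes (orange) lie below, and the atrial genes Myl7, Myl4 and Sln (red) are the lowest points.

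Genes of cell division were among those with the largest rises. Top2a (ENSMUSG00000020914), the topoisomerase that untangles chromosomes before they separate, went from 2.66, 1.97 and 3.73 in untreated to 21.1, 43.3 and 28.7 in treated hearts, a log2 difference of 3.05 ± 0.22 (SE; adjusted p = 8.4e-07). Mki67, the proliferation antigen Ki-67, went from 5.07, 6.15 and 7.18 to 39.8, 80.7 and 52.2 (2.99 ± 0.20, adjusted p = 6.9e-07). Prc1, which bundles the microtubules of the midzone in anaphase, went from 1.57, 1.60 and 2.07 to 15.4, 26.4 and 17.8 (2.89 ± 0.21, adjusted p = 8.0e-07). In each of the 3 genes every treated heart lay above every untreated heart, as in 29.2% of all tested genes, and treated 2 was the highest. These low counts sit near the pseudocount of 1, so that with a pseudocount of 10 the difference for Top2a was 1.65.

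Of 32 genes of mitosis and cytokinesis, 11 reached the minimum for testing and all 11 rose, with a median of 2.30; 10 of these 11 reached it only through the treated libraries, so their rise was in part a condition of entry. Without that condition all 32 were tested, and all 32 were higher. Among genes of DNA replication and S phase, 10 of 11 tested rose (median 0.76), but 6 of the 11 reached the minimum only in treated libraries. With no filter 24 of 33 were higher (median 0.65), and without treated 2 the count was 7 of 10 (median 0.49). The helicase subunit Mcm6 went from 6.28, 8.12 and 5.39 to 15.9, 20.5 and 15.3 (1.27 ± 0.18, adjusted p = 7.7e-05) and its partner Mcm3 from 5.92, 4.67 and 5.25 to 8.91, 18.7 and 12.2 (1.13 ± 0.20, adjusted p = 0.00036). Cyclin D1, which drives entry into the cell cycle, is encoded by Ccnd1, and its RNA rose from 39.5, 41.1 and 42.7 to 116, 169.6 and 119.7 (1.67 ± 0.12, adjusted p = 8.0e-07). Cdkn1a, encoding the cyclin kinase inhibitor p21, rose as well, from 11.7, 12.3 and 18.5 to 32.1, 45.7 and 34.6 (1.35 ± 0.16, adjusted p = 1.7e-05). The 15 tested p53 targets and cyclin kinase inhibitors, Cdkn1a included, were split into 6 higher and 3 lower, among the latter Sesn1 (-0.90) and Ccng1 (-0.66).

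Many promoters of these genes carry the short words known from cell cycle transcription, and 5 of them are printed here. Printed are the mitosis genes with the largest rises past the threshold whose promoter holds TTTGAA. Replication genes were chosen in the same way among those whose promoter holds an E2F word. The difference in these words between the printed promoters was thus set by the choice. Each runs 5′ to 3′ on the gene's strand from 250 bases before to 50 bases after the RefSeq start site (GRCm38.p6): Top2a at chr11:99024140-99024439, minus strand; Mki67 at chr7:135716330-135716629, minus strand; Prc1 (the first of its 2 listed promoters) at chr7:80294201-80294500, plus strand; Mcm6 at chr1:128359656-128359955, minus strand; Mcm3 at chr1:20820263-20820562, minus strand. Capitals mark, on either strand, TTTGAA (the cell cycle homology word), CCAAT (the box bound by NF-Y) and the words TTTCCCGC, TTTGGCGC, TTTCGCGC and TTTGCCGC (sites of the E2F kind); overlapping words run together.
Top2a: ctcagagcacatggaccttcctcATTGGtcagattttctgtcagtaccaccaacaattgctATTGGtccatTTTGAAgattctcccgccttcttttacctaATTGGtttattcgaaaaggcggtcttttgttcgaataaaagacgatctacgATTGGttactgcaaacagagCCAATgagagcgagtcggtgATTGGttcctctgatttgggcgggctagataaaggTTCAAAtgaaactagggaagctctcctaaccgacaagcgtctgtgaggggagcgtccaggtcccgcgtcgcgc
Mki67: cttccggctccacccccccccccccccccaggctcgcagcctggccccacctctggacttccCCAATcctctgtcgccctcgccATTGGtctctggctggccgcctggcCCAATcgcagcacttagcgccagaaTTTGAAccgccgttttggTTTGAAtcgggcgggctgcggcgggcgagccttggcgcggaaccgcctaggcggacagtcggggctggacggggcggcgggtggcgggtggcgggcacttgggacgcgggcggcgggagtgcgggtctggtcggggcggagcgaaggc
Prc1: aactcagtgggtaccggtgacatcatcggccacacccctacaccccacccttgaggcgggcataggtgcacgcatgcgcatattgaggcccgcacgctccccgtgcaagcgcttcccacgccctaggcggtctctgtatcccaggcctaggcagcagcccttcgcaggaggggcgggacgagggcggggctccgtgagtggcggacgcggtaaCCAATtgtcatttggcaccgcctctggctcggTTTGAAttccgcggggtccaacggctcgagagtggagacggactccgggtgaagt
Mcm6: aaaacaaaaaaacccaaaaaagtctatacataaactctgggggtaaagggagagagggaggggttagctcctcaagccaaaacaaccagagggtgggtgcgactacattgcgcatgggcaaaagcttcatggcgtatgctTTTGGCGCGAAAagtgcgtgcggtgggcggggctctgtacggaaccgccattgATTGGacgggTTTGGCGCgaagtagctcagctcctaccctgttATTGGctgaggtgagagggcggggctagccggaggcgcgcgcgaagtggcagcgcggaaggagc
Mcm3: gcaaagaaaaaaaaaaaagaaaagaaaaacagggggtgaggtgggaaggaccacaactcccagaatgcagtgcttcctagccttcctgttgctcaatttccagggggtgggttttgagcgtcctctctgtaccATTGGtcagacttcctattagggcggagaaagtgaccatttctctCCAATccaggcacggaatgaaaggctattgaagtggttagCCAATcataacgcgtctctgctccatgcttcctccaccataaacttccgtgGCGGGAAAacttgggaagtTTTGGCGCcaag

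Counted from the start site, TTTGAA began at -179 and -23 in the Top2a promoter, at -116 and -98 in Mki67 and at -5 in Prc1. Mcm6 and Mcm3 held no TTTGAA but 3 and 2 E2F words. Over the lists, 27 of the 32 mitosis genes were found in the table, with 29 promoters, and 79.3% of these held TTTGAA, against 12.1% of the replication promoters and 17.9% of all 32851 promoters in the table. CCAAT was in 82.8% of the mitosis promoters, 51.5% of the replication promoters and 37.4% of all. An E2F word was in 39.4% of the 33 promoters of the 26 replication genes found, in 3.45% of the mitosis promoters and in 2.26% of all. A match is a stretch of letters, not evidence of binding.

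**Figure D3:**
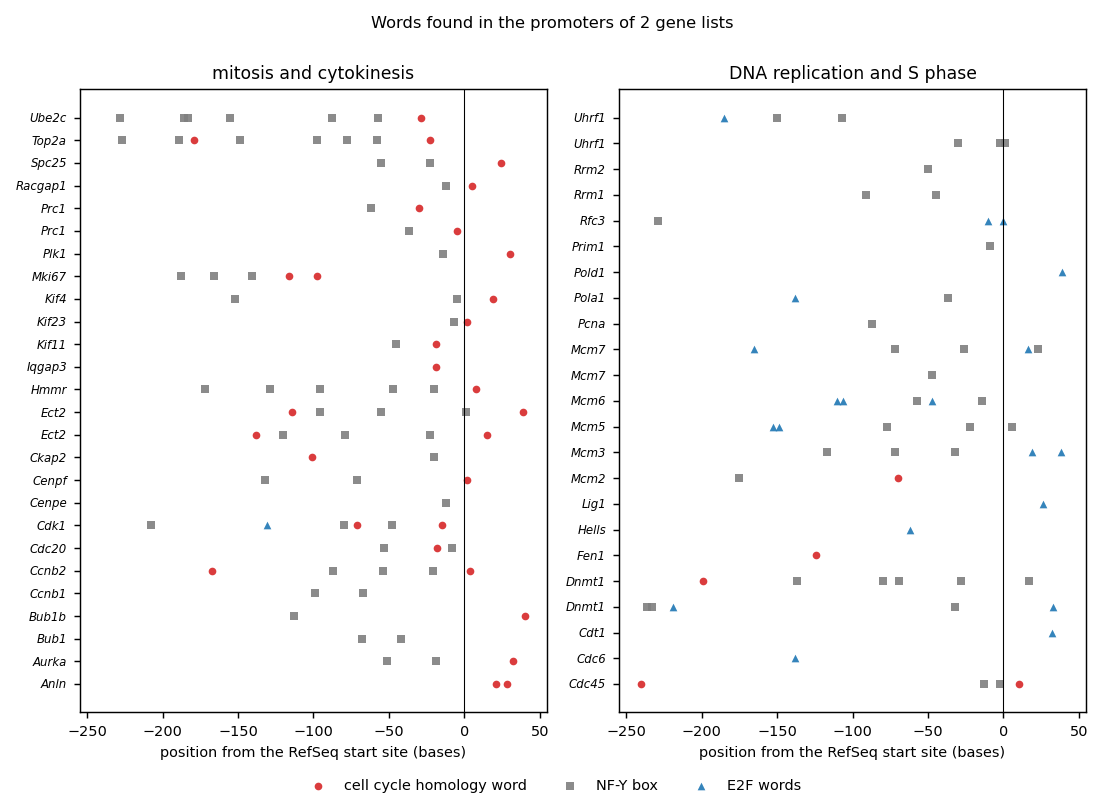
Position of the searched words (x axis, bases from the RefSeq start site, over a window from 250 bases before to 50 after it) in the promoters of the mitosis list and the DNA replication list that hold at least 1 word, 1 promoter per line. The cell cycle homology word appears mainly in mitosis promoters, and E2F words mainly in replication promoters.

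The extracellular matrix rose broadly. All 16 tested collagen genes (of 21 listed) were higher in treated hearts, with a median of 0.94 and a range from 0.77 to 1.64. Col3a1, a main fibrillar collagen of scar and vessel wall, went from 295, 295 and 340.3 to 637, 661 and 665 (1.08 ± 0.20, adjusted p = 0.00059), and Col8a1, a network collagen of vessels and remodelling tissue, from 19.1, 19.4 and 17.7 to 50.2, 71.7 and 61.2 (1.64 ± 0.25, adjusted p = 0.00016). The basement membrane collagens Col4a1 and Col4a2 rose by 1.06 and 0.95. Groups did not overlap for any of these genes. Col1a1, the other main fibrillar collagen, stood at 99.2, 107 and 111 untreated and 187, 204 and 173 treated (0.82 ± 0.28, adjusted p = 0.025); its call was lost in DESeq2 and when untreated 1, untreated 2, treated 1 or treated 2 was left out.

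Among matricellular and elastic matrix proteins, 20 of 30 tested rose and 3 fell (median 0.91); 7 of the 30 reached the minimum only in treated libraries. Postn encodes periostin, which is made by activated fibroblasts, and it went from 38.8, 34.4 and 44.6 to 206, 278 and 222 (2.55 ± 0.41, adjusted p = 0.00021). Fn1, fibronectin, rose from 48.9, 47.0 and 64.7 to 131, 144 and 128 (1.32 ± 0.32, adjusted p = 0.0037). Sparc, encoding a collagen-binding matrix protein, rose from 306, 335 and 380.5 to 883, 1028 and 909 (1.46 ± 0.13, adjusted p = 3.0e-06). In all 3 the lowest treated heart exceeded the highest untreated heart by a wide margin, and the treated libraries were close to one another. Further risers were Cilp (2.25), Mfap5 (1.89), Mfap4 (1.75), the proteoglycans Vcan (1.41) and Bgn (1.13), fibrillin Fbn1 (1.39) and fibulin Fbln2 (1.29).

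Of 23 tested genes that process or crosslink collagen, 13 rose and 2 fell (median 0.37), with Loxl2, a lysyl oxidase (1.24), and Adamts2, a procollagen peptidase (1.09), in front. Lox itself was at 3.87, 5.90 and 3.87 and 11.9, 11.0 and 9.33 and did not pass (1.10 ± 0.59, adjusted p = 0.14), although its groups did not overlap. In the fit on the 6 knockout samples alone, which leaves out the wild type library that stood apart, Lox passed with an adjusted p of 0.00029. Genes of transforming growth factor-β (TGF-β) and activin signalling were divided, 8 of 22 higher and 6 lower (median 0.14). The secreted glycoprotein gene Fstl1 went from 90.2, 94.6 and 99.2 to 236, 273 and 258 (1.42 ± 0.19, adjusted p = 4.2e-05) and the ligand Tgfb1 rose by 0.78, while the receptor Bmpr2 fell from 21.7 to 11.6 (-0.87 ± 0.11). Bmp10, also in this list, is the atrial gene described above.

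Of 17 tested fibroblast markers 11 were higher and none lower, with a median of 0.31. Among the listed markers, the surface protein genes Pi16 and Cd34 rose by 1.43 and 1.09. How much of these rises lies in fibroblasts was not tested. The lineage marker Pdgfra was at 37.4 and 40.8 and did not pass (0.12 ± 0.08, adjusted p = 0.21), though it did when scaled without mitochondrial RNA (adjusted p = 0.036). The summed fibroblast list was 2279 to 2362 in untreated and 2813 to 2851 in treated hearts; whether this shift bears on the matrix genes was not tested.

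**Figure D4:**
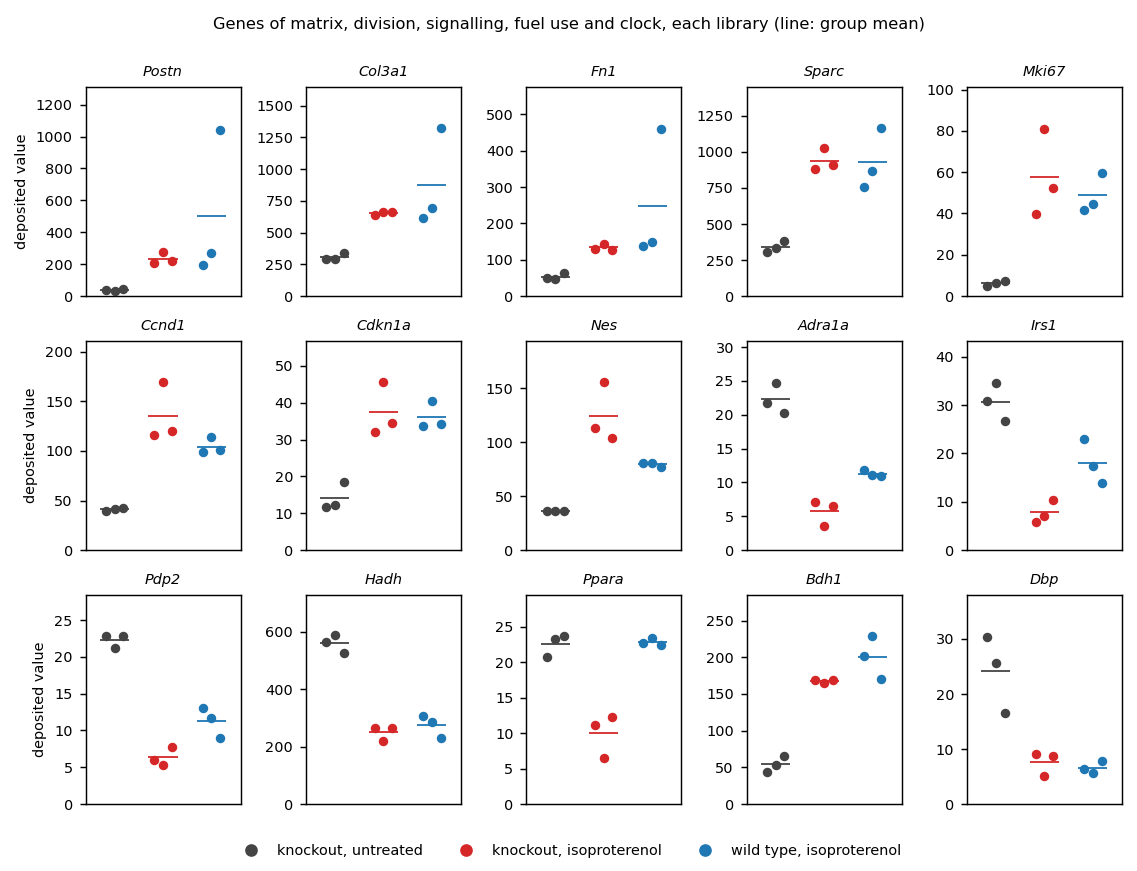
Normalized read count (linear axis from 0), 1 point per library, for 15 genes of the matrix, division, signalling, fuel and clock results in untreated and treated OMA1 knockout hearts and treated wild type hearts; the line is the group mean. In the panels for Postn, Col3a1, Fn1, Sparc, Mki67, Ccnd1, Cdkn1a, Nes and Bdh1 each treated knockout lies above each untreated one, and in the panels for Adra1a, Irs1, Pdp2, Hadh, Ppara and Dbp below.

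Endothelial markers were higher as a group, 20 of 23 tested against 2 lower, with a median of 0.76. Pecam1, the endothelial adhesion molecule CD31, went from 125, 132 and 142 to 241, 288 and 257 (0.97 ± 0.08, adjusted p = 1.9e-06). Fabp4, the fatty acid carrier of capillary endothelium and fat, rose by 1.15, the transcription factor Sox18 by 1.15, the tight junction protein Cldn5 by 1.03 and the tip cell peptide Apln by 1.05. The receptors Kdr and Tek rose by 0.76 and 0.51, whereas von Willebrand factor, Vwf, was at 67.0 and 70.1 and did not pass (adjusted p = 0.66). The list summed to 1968 to 2208 in untreated and 3115 to 3770 in treated hearts, so even the lowest treated library was above the highest untreated one. Nes, encoding nestin, an intermediate filament of growing vessels and progenitor-like cells, rose from 36.7, 36.4 and 36.3 to 113, 156 and 104 (1.72 ± 0.11, adjusted p = 6.2e-07).

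Smooth muscle and pericyte markers rose in 10 of 13 cases (1 fell, median 0.37), led by Acta2 (0.85) and the pericyte regulator Rgs5, which went from 422, 425 and 422 to 831, 677 and 778 (0.84 ± 0.09, adjusted p = 6.1e-06). Angiogenic and growth factor genes had no common direction, with 9 of 23 higher and 8 lower. Angpt1, the ligand that stabilizes vessels, fell from 72.1, 60.5 and 70.2 to 19.9, 16.5 and 23.8 (-1.71 ± 0.12, adjusted p = 8.0e-07). Igfbp7, an endothelial binding protein for insulin-like growth factors, rose by 1.24, while Fgf1 and Igfbp3 had log2 differences of -1.14 and -1.12. Vegfb, a growth factor of cardiomyocytes, fell as well (-0.41).

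Immune genes rose in part. Of 14 tested macrophage and monocyte markers, 5 rose and none fell (median 0.44), including the integrin Itgam (0.95) and the mannose receptor Mrc1 (0.50), whereas the lysozyme gene Lyz2 did not pass (0.23 ± 0.14, adjusted p = 0.18). This count moved with single libraries: 10, Lyz2 among them, were higher without untreated 3, and 3 of 11 tested were higher without treated 2. Complement, chemokine and acute phase genes were higher in 9 of 14 cases and lower in 1 (median 0.46), although the 7 that reached a minimum of 30 had a median of -0.07. Serpina3n, a secreted protease inhibitor of the acute phase, rose from 5.19, 4.30 and 6.49 to 15.8, 20.7 and 17.3 (1.59 ± 0.35, adjusted p = 0.0018).

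Among interferon-stimulated and antigen presentation genes 16 of 28 rose and 4 fell (median 0.42); of the 11 that reached a minimum of 30, 3 were higher and 4 lower (median 0.13), and without untreated 3 the count was 18 higher and none lower. Ifi44 (1.35), Oas2 (1.02), Ifit3 (0.89) and the RNA sensor gene Ddx58 (0.82) are induced by interferon, and B2m (0.76) encodes the shared chain of class I molecules. The class II gene H2-Aa went the other way, from 42.3, 51.5 and 66.9 to 38.0, 35.0 and 38.5 (-0.49 ± 0.14, adjusted p = 0.011). Without untreated 3 its log2 difference was -0.32, with a limma adjusted p of 0.059. That library held the most Ighm, Adipoq and Cfd RNA, and whether this bears on H2-Aa was not tested.

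The β-adrenergic pathway itself showed no common shift, with 14 of 36 tested genes higher, 14 lower and a median of -0.02, the same as over all genes (0.09 when scaled without mitochondrial RNA). At the receptors, Adrb1, the main β-receptor of cardiomyocytes, was at 13.9, 10.1 and 14.9 untreated and 8.08, 7.09 and 8.36 treated (-0.65 ± 0.19, adjusted p = 0.011; without untreated 3, 0.052). Adra1a, an α1-receptor, fell from 21.7, 24.7 and 20.3 to 7.15, 3.54 and 6.57 (-1.82 ± 0.18, adjusted p = 5.3e-06), and Adra1b fell by 1.07. All treated hearts lay below all untreated hearts for each of these 3 receptors.

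Downstream of the receptors, the cyclases Adcy9 and Adcy5 fell by 1.10 and 0.79, and the catalytic and regulatory subunits of protein kinase A, Prkaca and Prkar2a, by 0.64 and 0.95. Its inhibitor Pkia fell by 1.08. Phosphodiesterases, which break down cyclic AMP, were divided: Pde3a and Pde4d fell by 0.95 and 0.82, whereas Pde4b rose from 31.2, 31.5 and 33.0 to 49.9, 43.5 and 49.6 (0.56 ± 0.09, adjusted p = 0.00013). Genes that rose included the receptor kinase Grk5, from 19.8, 22.3 and 28.0 to 44.2, 40.4 and 45.3 (0.88 ± 0.11, adjusted p = 2.2e-05), the cyclic AMP-responsive repressor Crem (1.04), the anchoring protein Akap12 (1.22), the exchange factor Rapgef3 (0.84) and the inhibitory G protein Gnai2 (0.58). Rapgef3 and Akap12 are also expressed in vessels, whose markers rose; how much of their change lies in myocytes was not tested.

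Calcium handling genes fell in 14 of 24 cases and rose in 5 (median -0.43). Atp2a2, the calcium pump SERCA2 of the sarcoplasmic reticulum, went from 11128, 11112 and 11296 to 7900.5, 6059 and 8028 (-0.62 ± 0.12, adjusted p = 0.00083). Its inhibitor phospholamban, Pln, fell by a like amount, from 5176, 5332 and 5238 to 3766, 2928 and 3827 (-0.59 ± 0.11, adjusted p = 0.00048). Slc8a1, the sodium-calcium exchanger, fell further, from 116, 125 and 111 to 55.1, 37.6 and 54.3 (-1.26 ± 0.12, adjusted p = 3.6e-06), while treated wild type hearts had 141, 138 and 133. For all 3 genes treated 2 was the lowest and the groups did not overlap. The calcium channel subunit Cacna2d1 (-1.09) and the kinase Camk2d (-0.68) fell too, and the release channel Ryr2 did not pass (-0.19 ± 0.08, adjusted p = 0.073; 0.047 without treated wild type 3).

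Ion channels and connexins were lower in 22 of 29 cases and higher in 3 (median -0.49). The ATP-sensitive and inward rectifier channels Kcnj11 and Kcnj12 fell by 1.36 and 1.38, the transient outward channel Kcnd2 and its partner Kcnip2 by 1.05 and 0.94, and the sodium channel subunit Scn4b by 0.98. Kcnj5 and Gja5, genes of atrial or conduction tissue, fell by 1.16 and 1.07. Whether these falls go with those of the atrial markers was not tested. Kcna5, a further atrial channel gene, rose by 1.28.

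Sarcomere genes fell in 13 of 24 cases and rose in 2 (median -0.25). Myom2, an M-band protein, fell most, from 1024, 961 and 890.3 to 406, 261 and 361 (-1.50 ± 0.13, adjusted p = 1.9e-06), followed by Nebl (-0.80), Tmod1 (-0.56) and Mybpc3 (-0.52). The giant spring protein titin, Ttn, showed no difference beyond the spread (0.01 ± 0.09, adjusted p = 0.90). Ventricular myocyte markers had 5 of 10 lower and none higher (median -0.41).

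Genes of hypertrophy and the fetal programme did not rise together, with 7 of 24 higher and 9 lower (median -0.24). Nppb, the B-type natriuretic peptide, was at 87.4 ± 13.9 untreated and 106 ± 11.6 treated (SD, n = 3 each; 0.28 ± 0.24, adjusted p = 0.34). Myh7, the slow myosin heavy chain, was at 162, 122 and 160.4 and 104, 95.1 and 87.5 (-0.62 ± 0.43, adjusted p = 0.24), and Acta1, skeletal α-actin, at 310.3, 290.5 and 224 and 145, 208 and 172 (-0.65 ± 0.32, adjusted p = 0.10). None of these 3 passed in the fit over 9 samples; on the 6 knockout samples alone Nppb was higher (adjusted p = 0.043) and Myh7 and Acta1 were lower (adjusted p = 0.00033 and 0.0010). Nppa fell from 1616, 740.2 and 1101 to 84.9, 117 and 100.2 (-3.44 ± 0.69, adjusted p = 0.0011), along with the atrial markers. Genes that rose were Tpm4 (1.27), the ubiquitin hydrolase Uchl1 (1.03) and the stretch sensor Fhl1 (0.68). The cardiac transcription factors Gata4 and Myocd fell by 0.81 and 0.80.

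Genes that burn fat fell together. Of 34 genes of fatty acid uptake and oxidation, all tested, 30 fell and 1 rose (median -0.73). Hadh, a dehydrogenase of β-oxidation, fell from 566, 589.7 and 526 to 266, 219 and 266 (-1.16 ± 0.11, adjusted p = 3.5e-06), with each treated heart below each untreated one. The β-oxidation enzymes Hadhb and Acadm fell by 0.93 and 0.77, the activating enzyme Acsl1 by 0.93 and the carnitine transferase Cpt1b by 0.60. Angptl4, Acot1 and Ucp3, fatty acid-responsive genes, fell by 1.64, 1.40 and 1.21. Ppara, the nuclear receptor that drives this set, went from 20.8, 23.4 and 23.8 to 11.1, 6.57 and 12.3 (-1.14 ± 0.16, adjusted p = 7.4e-05); treated wild type hearts had 22.7, 23.4 and 22.5.

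Pyruvate entry and the tricarboxylic acid cycle followed, with 23 of 30 lower and none higher (median -0.43). Pdp2, a phosphatase that activates pyruvate dehydrogenase, fell from 22.8, 21.2 and 22.8 to 6.01, 5.32 and 7.79 (-1.67 ± 0.15, adjusted p = 2.5e-06). Pdk4, a kinase that inactivates the same enzyme, fell from 566, 638 and 840.3 to 352, 288 and 413 (-0.95 ± 0.18, adjusted p = 0.00079), so both arms of that switch were lower. Citrate synthase, Cs, fell by 0.76, Sdha by 0.57 and Ogdh by 0.66. Branched-chain amino acid and ketone catabolism had 19 of 22 genes lower (median -0.59), among them Dbt (-1.11), Ivd (-1.06), Bckdha (-0.78) and Oxct1 (-0.58). The 1 riser was Bdh1, the dehydrogenase that interconverts the main ketone bodies, which went from 44.0, 52.9 and 65.6 to 169, 165 and 168 (1.63 ± 0.13, adjusted p = 1.1e-06).

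Glucose uptake, glycolysis and glycogen genes had no common direction, 6 of 29 higher and 9 lower with a median of 0.00. Gapdh (0.58), Ldha (0.35) and the phosphorylase kinase subunit Phka1 (0.98) rose, while Pfkm (-0.50) and Pygb (-0.75) fell. Irs1, the adaptor of the insulin receptor, fell from 30.8, 34.7 and 26.7 to 5.91, 7.09 and 10.5 (-1.87 ± 0.19, adjusted p = 5.8e-06), against 22.9, 17.4 and 13.8 in treated wild type hearts. Metabolic and mitochondrial regulators were lower in 17 of 24 cases and higher in 1 (median -0.46), with Esrrg at -0.81, the AMP-activated kinase subunit Prkaa2 at -0.91 and the coactivator Ppargc1a at -0.37. Tfam, which packages the mitochondrial genome, did not pass (-0.14 ± 0.10, adjusted p = 0.23).

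Of 77 nuclear genes of the respiratory chain and ATP synthase, 30 rose, 8 fell and 39 did not pass (median 0.18). Scaling without mitochondrial RNA gave 47 higher and 6 lower, where all genes had 2866 and 1661 of 8561. Cyclic loess gave 51 and 5, where all genes had 2192 and 2235 of 8543. The ATP synthase subunit gene Atp5k went from 119.7, 119 and 108 to 238, 225 and 223 (0.98 ± 0.09, adjusted p = 4.2e-06), and Atp5l, Ndufa5 and Ndufb3 rose by 0.81, 0.73 and 0.63. The large complex I subunit Ndufs1 fell by 0.64. After a fit to transcript length and GC content the counts were 24 higher and 14 lower (median 0.07). Of the 13 protein-coding mitochondrial transcripts, 7 rose, none fell and 6 did not pass (median 0.26), with mt-Nd3 at 0.64 and mt-Co2 at 0.48; 4 were higher after that correction, and 3 when no gene was filtered out.

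Mitochondrial dynamics, cristae and inner membrane protease genes were lower in 14 of 30 cases and higher in 1 (median -0.19); 7 were lower when mitochondrial RNA was left out of the scaling, and 9 without treated 2 or without untreated 2. Opa1, whose product OMA1 cleaves, fell from 196, 206 and 187 to 130.5, 107 and 139 (-0.65 ± 0.10, adjusted p = 0.00012), and treated wild type hearts had 202, 214 and 179.5. The outer membrane fusion gene Mfn2 fell by 0.60, the cristae organizer Immt by 0.50 and Ghitm by 0.45. Yme1l1, the other protease that cleaves OPA1, had a log2 difference of -0.28 ± 0.08 (adjusted p = 0.0079, and 0.053 when scaled without mitochondrial RNA). Among cytosolic ribosomal protein genes 20 of 45 rose and 4 fell (median 0.17), or 33 and 1 without mitochondrial RNA in the scaling and 32 and 1 with cyclic loess, with Rpl38 (0.84), Rps24 (0.65) and Rpl23 (0.60) among the risers.

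Stress responses were mixed. Genes of the integrated stress response and amino acid supply were mostly too low to test, and of 9 tested 4 rose and 2 fell (median 0.17); with no filter 8 of 23 were higher and 3 lower. Atf4, its central transcription factor, went from 45.4, 49.3 and 44.1 to 73.8, 75.5 and 66.6 (0.63 ± 0.07, adjusted p = 2.1e-05), and Atf5 and Ddit3 rose by 0.80 and 0.46. Chaperones of the endoplasmic reticulum fell in 12 of 21 cases with none higher (median -0.41), including Hspa5, the chaperone BiP, from 574, 495 and 661 to 306, 333 and 287 (-0.89 ± 0.10, adjusted p = 1.1e-05). Heat shock genes were divided, 3 of 19 higher and 9 lower (4 and 5 with cyclic loess), with the small heat shock protein Hspb8 at -0.75 and mitochondrial Hspd1 at -0.62 against Dnaja1 at 0.55. Of 28 antioxidant genes 6 rose and 4 fell (median 0.05), with 10 to 12 higher under median-ratio, loess or non-mitochondrial scaling or array weights; the metallothioneins Mt1 and Mt2 rose by 0.69 and 1.31, and mitochondrial Sod2 fell by 0.41.

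Immediate early genes were higher in 12 of 16 cases and lower in 2 (median 0.51). Klf4, a transcription factor of endothelial and smooth muscle cells among others, rose from 16.5, 16.1 and 21.3 to 49.5, 49.8 and 50.3 (1.43 ± 0.11, adjusted p = 9.7e-07), and Klf2 and Jun rose by 1.08 and 0.65. Egr1 was lower (-0.83 ± 0.24, adjusted p = 0.010), a call that DESeq2 did not make. Of 17 clock and clock output genes 12 fell and 4 rose (median -0.40). The output factor Dbp went from 30.4, 25.6 and 16.6 to 9.12, 5.11 and 8.76 (-1.54 ± 0.22, adjusted p = 8.8e-05), and Nr1d1, Hlf and Tef had log2 differences of -1.22, -1.09 and -0.95, whereas the core activator Arntl rose from 17.8, 18.1 and 17.8 to 28.3, 33.7 and 28.1 (0.71 ± 0.09, adjusted p = 2.5e-05) and Nfil3 by 0.87. The time of day of sampling is not given in the labels. Without untreated 1, the library with the most Dbp RNA, 7 of 16 clock genes tested were lower.

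**Figure D5:**
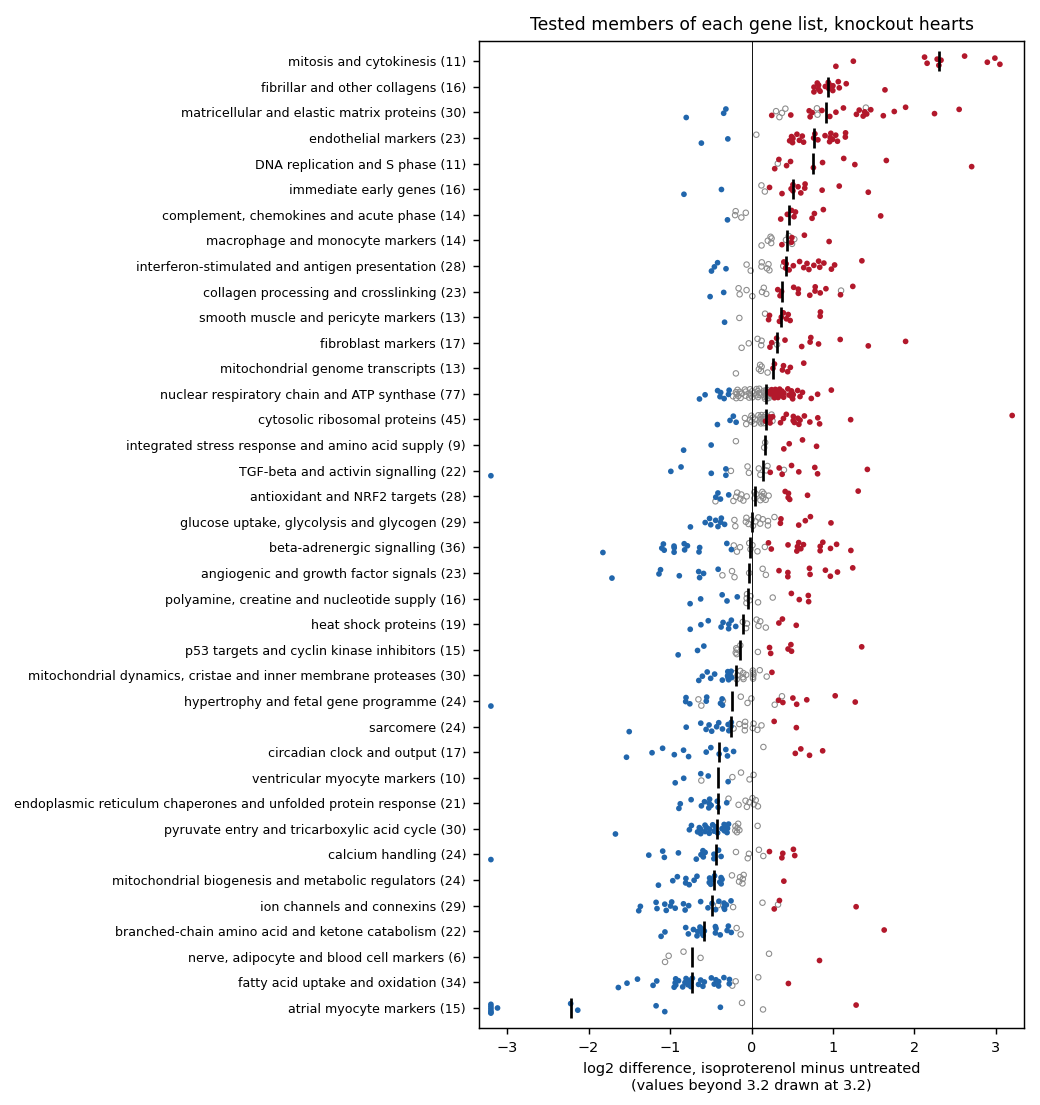
Log2 difference (x axis, treated minus untreated OMA1 knockout hearts) of every tested member of each list with at least 5 of them, 1 list per line with its number tested; the bar is the median, red points passed as higher, blue points as lower and open points did not pass, and values beyond 3.2 are drawn at 3.2. Collagens and mitosis genes lie to the right of 0, fatty acid and ion channel genes mostly to the left, and β-adrenergic signalling on both sides.

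Among the genes outside these lists, Hipk2, a nuclear kinase, fell from 64.6, 68.9 and 65.6 to 17.4, 13.5 and 22.6 (-1.86 ± 0.14, adjusted p = 1.0e-06), with 56.3, 44.9 and 58.2 in treated wild type hearts. The genes with the largest rises also included the secreted glycoprotein gene Olfml2b (7.05 to 31.5), the transcription factor Meox1 (1.76), the imprinted gene Mest (1.91), the endothelial gene Apold1 (1.83), the prion-like Prnd (1.90), the membrane protein Emp1 (1.80) and the actin-binding peptide Tmsb10 (1.80). The adrenomedullin and calcitonin gene-related peptide coreceptor Ramp1 fell from 11.6, 11.2 and 12.8 to 2.07, 1.56 and 2.03 (-2.16 ± 0.23). The cyclase Adcy1 fell from 20.9, 12.5 and 17.4 to 1.04, 1.46 and 1.78 (-2.87 ± 0.25). Both were as low in treated wild type hearts, at 1.47, 1.84 and 1.92 and 1.56, 1.84 and 1.73. Both were near 0 in the treated knockouts, as several atrial markers were, and whether these go together was not tested. Further genes with large falls were the atrial genes Myl4 (454, 186 and 292 to 2.59, 1.46 and 2.11) and Mybphl (61.7, 26.2 and 37.9 to 0.104, 0 and 0.0811), the secreted Dkk3 (-3.12), the lipid transfer gene Stard10 (-2.22), the carbonic anhydrase Car3 of fat and muscle (-4.64) and the desaturase Scd4 (-2.19). Genes of polyamine, creatine and nucleotide supply were divided, with 4 of 16 higher and 5 lower, among them brain-type creatine kinase Ckb (0.70), the taurine transporter Slc6a6 (0.70) and adenosine kinase Adk (-0.75). The lipogenic genes Scd1 (102, 53.7 and 246 to 14.2, 13.1 and 16.5) and Fasn (77.1 ± 38.9 to 18.3 ± 1.90, SD, n = 3 each) fell. Each was highest in untreated 3, as Adipoq and Cfd were, and whether these go together was not tested. Gpam, the first enzyme of triglyceride synthesis, fell from 147, 172 and 170.2 to 49.6, 37.9 and 59.0 (-1.74 ± 0.13, adjusted p = 8.4e-07).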

How the data were processed

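Heart RNA of 3 treated and 3 untreated OMA1 knockout mice and 3 treated wild type mice was sequenced from TruSeq libraries, per the labels' protocols. The authors deposited 1 table of normalized expected counts, used here as a signal value per gene; cutadapt, RSEM 1.17, limma and GRCm38 are named in the submitters' processing notes, while the aligner, the scaling formula and any filter were not stated in the sources used here. In each deposited column the values were whole multiples of 1 read: 100% were whole within 0.02 reads, which gave 6933879 to 12187701 reads per library, and 0 columns of values were unused.

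The main test was limma 3.58.1 (R 4.3.3) with an intensity trend on log2(value + 1), over all 9 samples in 3 groups, for genes with at least 10 in at least 3 samples, with Benjamini-Hochberg adjustment over 8543 genes at 0.05. Log2 differences are treated minus untreated with SE, on that log2(value + 1) scale, which understates the change of low genes. edgeR 4.0.16 and DESeq2 1.42.0 on recovered reads, 2 other pseudocounts (0.5 and 10), 2 other filters, 4 other scalings, a spline correction for transcript length and GC content (5 degrees of freedom), a fit on the 6 knockout samples and leaving out each library were alternatives. On simulated data for this comparison, 199 of the 8460 genes tested were changed. There limma recovered 99% of 2-fold and 81.82% of 1.5-fold changes and made 12 false calls. In the real data 51.4% of genes were called, and recovery with so many changes was not tested. Gene positions are from GENCODE M21, which held 13392 of 13539 gene IDs.

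Named genes are Oma1, the 15 largest rises and 15 largest falls without overlap and with a mean of at least 20 in the higher group, up to 4 members per list by p and those past 2-fold, and a preset set of cardiac genes; others were chosen after their values were seen, and some named genes are not reported here. The members and the 41 gene lists were chosen with earlier results of these data known, so list counts and medians are descriptions. Counts of the main fit are read against the 23.9% of all tested genes called higher and the 27.4% called lower (51.4% either way).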

Additional observations from a re-analysis of the deposited data

How the results depend on the processing

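Every alternative kept the direction of the calls it shared with the reported fit: 59.7% to 99.9% of the 4388 genes were called again, and 0 were called the other way. The lowest share came from the minimum of 30, which tested only 2622 of these genes and called 2619 of them again. The next lowest was 80.3%, without untreated 2. A minimum of 30 left 2693 calls. The 299 genes past 2-fold became 126 with a pseudocount of 10, 162 with a minimum of 30 and 608 with no filter. edgeR gave 2139 higher and 2208 lower genes and DESeq2 1916 and 1925.

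Leaving out 1 library gave 3574 (untreated 2) to 4605 (treated wild type 3) calls, 231 to 343 calls past 2-fold, 478 to 621 calls among list genes (564 with all libraries), 200 to 220 among named genes (219 with all) and a difference of 4.77 to 6.92 percentage points in the mitochondrial share. The labels do not say whether replicate numbers pair animals. Deviations from the group means correlated over genes at 0.121, -0.0748 and -0.0937 for same-numbered treated and untreated samples. Samples of different number gave -0.145 to 0.170. With 3 samples a group these values cannot decide whether animals were paired. With a replicate block 2012 genes were higher and 2304 lower.

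Depth limits genes at a few reads, above all the cell cycle genes in untreated hearts and the atrial and adipocyte genes in treated hearts, whose log2 differences depend on the pseudocount. With 3 samples a group no exact test of a single value can pass 0.05.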

Other observations

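The RNA of the small mitochondrial ribosomal subunit, mt-Rnr1, was at 1041, 1039.8 and 1092 in untreated and 2287, 2422 and 2329 in treated OMA1 knockout hearts (1.15 ± 0.10 on the log2 scale, limma adjusted p = 2.3e-06), against a median of 0.26 for the 13 protein-coding mitochondrial transcripts. Treated wild type hearts had 2036, 1778 and 1460.3, and every treated heart of either genotype lay above every untreated knockout heart.

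A few genes were at or near 0 in some libraries and clearly present in others. Rps13, a ribosomal protein gene with processed copies elsewhere in the genome, was at 0, 3.44 and 1.93 in untreated and 48.1, 20.9 and 42.1 in treated knockouts (3.93 ± 0.45), the largest rise among the named genes; with such copies its share of the reads is uncertain. Tom1, which encodes an endosomal adaptor, had 0 in all untreated knockouts, 1.97, 0 and 19.1 in treated knockouts and 16.2, 22.4 and 31.3 in treated wild type hearts. Dynlt1b, a dynein light chain with near-identical neighbours, was at 5.92, 1.48 and 5.53, 13.9, 14.3 and 19.1 and 1.83, 0 and 0 in the same order. D17H6S56E-5, listed under a name that the annotation used here does not hold, rose from 5.19, 6.52 and 6.91 to 25.2, 47.3 and 30.5 (2.25 ± 0.22).

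Long and short transcripts leaned to different sides. Of the 2124 tested genes with the shortest transcripts (151 to 2398 bases), 533 were higher and 412 lower in treated hearts, and of the 2123 with the longest (5153 to 106824 bases), 475 were higher and 686 lower.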
